A study of Mus musculus with 7 samples.

Results

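Complement is a cascade of plasma and tissue proteins that marks cells and synapses for removal. C1q, built from A, B and C chains, carries the proteases C1r and C1s, which cleave C4 and C2 to form an enzyme that cleaves C3, while factor B forms the C3-cleaving enzyme of the alternative route. In the brain C1q is known mainly as a product of microglia and macrophages, whereas C3 and C4 are also made by reactive glia. The genes described are the 9 components and regulators C1qa, C1qb, C1qc, C1ra, Serping1, C2, C4b, Cfb and C3, taken by symbol from a table of 23282 genes, and all 9 had values and passed the filter on low counts.

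The mice were adult C57BL/6 animals bearing glioblastoma, a malignant glial brain tumour, and the RNA came from tumour cells sorted for the red fluorescent marker tdTomato. The groups were 3 libraries of genotype WT and 4 of genotype FYN-KO (Fyn-KO here), each sorted and prepared on its own by a method that reads 1 tag near the 3' end of each polyadenylated RNA. Fyn is a membrane-linked tyrosine kinase. The tumour's driver, the promoter behind tdTomato, the altered part of Fyn, and whether host cells lacked Fyn too are not stated in the sources used here. Libraries are named by the columns of the table.

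The libraries held 8976745 to 16371244 counts and stood apart by group. Each WT library was deeper than any Fyn-KO library, yet 7723 to 9924 genes had a count in WT and 13535 to 14548 in Fyn-KO. The correlation of log CPM between libraries was 0.45 to 0.51 within WT and 0.79 to 0.86 within Fyn-KO. Fyn was at 719.9 to 1604 CPM (counts per 1000000 counts of the library) in WT and 74.5 to 190 CPM in Fyn-KO, 9.43 times lower on average. Summed markers of oligodendrocyte-lineage tumour cells were 12858 to 26429 CPM in WT and 197 to 1175 CPM in Fyn-KO. Summed markers of steroid-producing tissue were 4.54 to 285 CPM in WT and 26911 to 30001 CPM in Fyn-KO, so the Fyn-KO libraries go against a label of glioma cells alone. Rn45s, the ribosomal RNA precursor, stood at 14069 to 29153 CPM in WT and 105460 to 166325 CPM in Fyn-KO. Single WT libraries also missed many genes that another WT library held. Of 8965 genes at 20 CPM or more in some WT library, 5587 (62.3%) lay under 1 CPM in another, against 79 of 8810 (0.897%) in Fyn-KO. Of the 6 members that reached 20 CPM in a WT library, 4 (C1qc, Serping1, C4b and Cfb) did so too, a share near that of all genes, so their swings between WT libraries are not particular to them. Fewer cells of a type and less RNA per cell cannot be told apart in such bulk samples.

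C1ra, C2 and C3 rose in Fyn-KO and no member fell. The other 6 members did not pass the test. Calls are from the edgeR quasi-likelihood test at a Benjamini-Hochberg adjusted p under 0.05 over all 13122 tested genes, where 19.0% were higher and 3.51% lower in Fyn-KO. The share of members called higher, 3 of 9 (33.3%), is above that background, but with 9 genes it is not read as particular to them. C4b alone had an unadjusted p under 0.05 with a lower level, and DESeq2 called 1 member lower (C4b) and limma-voom 0. CPM did not overlap between the groups for 4 of the 9 (C1qa, C1ra, C2 and C3), all higher in Fyn-KO, where 30.1% of tested genes were higher and 7.32% lower without overlap. C1ra, C2 and C3 passed the filter only through the Fyn-KO libraries, since no WT library reached 10 counts of C1ra or C2 and only WT replicate 3 did so for C3, and such genes could hardly fail to differ. Their calls are therefore no support for a change of the members as a group. The fitted log2 fold change had a median of 1.35 over the 9 members and 0.45 over all tested genes.

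**Figure D1:**
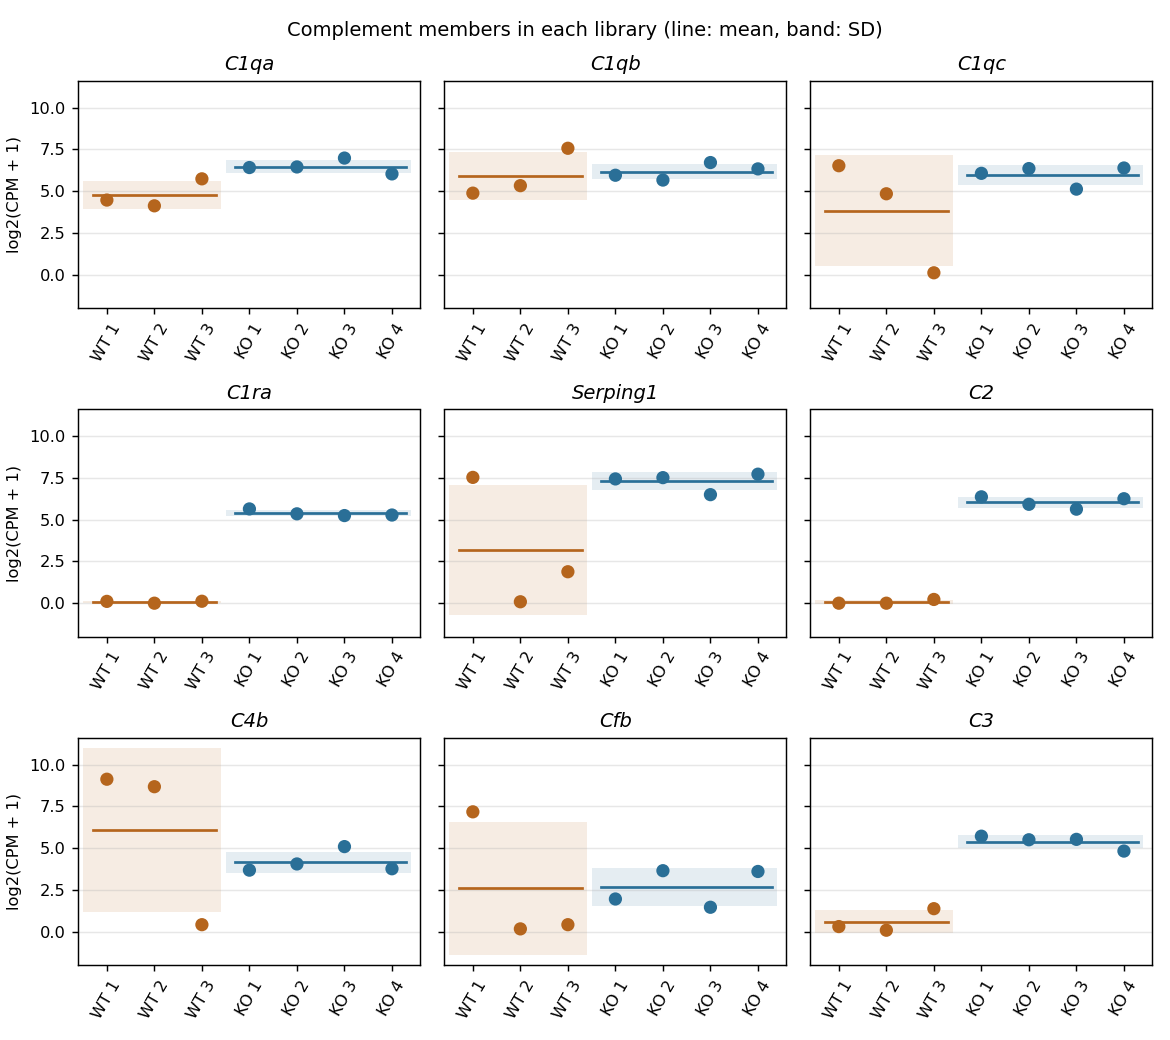
Level of each member in each library as log2(CPM + 1), with WT in brown and Fyn-KO in blue. Lines are group means and bands 1 SD (3 WT, 4 Fyn-KO). C1ra, C2 and C3 lie near 0 in the WT libraries and together in Fyn-KO, while C4b, Cfb, Serping1 and C1qc each have WT libraries both near 0 and far above it.

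The A chain of C1q was more abundant in the Fyn-KO libraries without passing the test across genes. C1qa lies on chromosome 4 (GRCm38, 136895917 to 136898803, minus strand, GENCODE M21) in a row with C1qc (136889804 to 136893065) and C1qb (136880129 to 136886187). All have 3 exons and the same strand, with 2851 and 3616 bases between neighbours. For C1qa, WT replicates 1 to 3 gave 21.1, 16.4 and 52.4 CPM (30.0 ± 19.5, mean ± SD, n = 3), and Fyn-KO replicates 1 to 4 gave 84.3, 86.4, 125 and 64.5 CPM (90.1 ± 25.5, n = 4). Values of other genes are given in the same order. Each Fyn-KO library was above each WT library, and the mean was 3.01 times higher in Fyn-KO. The log2 fold change was 1.38 ± 0.87 (SE, edgeR adjusted p = 0.351). Without WT replicate 3, the highest of its group, it was 2.38 with an adjusted p of 0.0322. That library was singled out after the values were seen, and without any other 1 library the adjusted p was 0.350 to 0.566.

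The B and C chains showed no common direction. C1qb gave 28.5, 39.2 and 189 CPM in the WT libraries (85.4 ± 89.5), and the Fyn-KO libraries gave 60.9, 49.7, 104 and 79.7 CPM (73.6 ± 23.7). WT replicate 3 was above each Fyn-KO library and the other WT libraries below each of them. Its log2 fold change was -0.50 ± 0.93 (adjusted p = 0.799), and 1.27 without WT replicate 3. C1qc gave 90.95, 27.7 and 0.0839 CPM in the WT libraries (39.6 ± 46.6), and the Fyn-KO libraries gave 66.1, 80.7, 33.8 and 82.7 CPM (65.8 ± 22.6). Here WT replicate 3 was the lowest of all libraries, with 1 count. The log2 fold change of C1qc was 0.76 ± 1.497 (adjusted p = 0.812), and 2.49 without WT replicate 1 (adjusted p = 0.303).

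The shares of the chains differed between WT libraries. The protein needs all of them, and their genes are known to be expressed together. Of the C1q tags of WT replicate 1, 64.7% were C1qc (95% exact interval 62.4 to 66.9) and 20.3% C1qb. In WT replicate 3, 0.0348% were C1qc (0.000882 to 0.194, 1 of 2872 tags) and 78.2% were C1qb. WT replicate 2 lay between, at 33.3% C1qc and 47.0% C1qb. In the Fyn-KO libraries C1qc took 12.9 to 37.2%, C1qb 22.9 to 39.5% and C1qa 28.4 to 47.6%. The share of C1qa was 15.03 to 21.7% in WT and did not overlap Fyn-KO, with an exact two-sided permutation p of 0.0571 (0.171 adjusted over the 3 chains, a comparison added after the values were seen). The interval covers counting error only. All chains together summed to 141, 83.4 and 241 CPM in the WT libraries, and the Fyn-KO libraries held 211, 217, 263 and 227 CPM, so WT replicate 3 lay within the Fyn-KO range for the sum while nearly without C1qc.

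**Figure D2:**
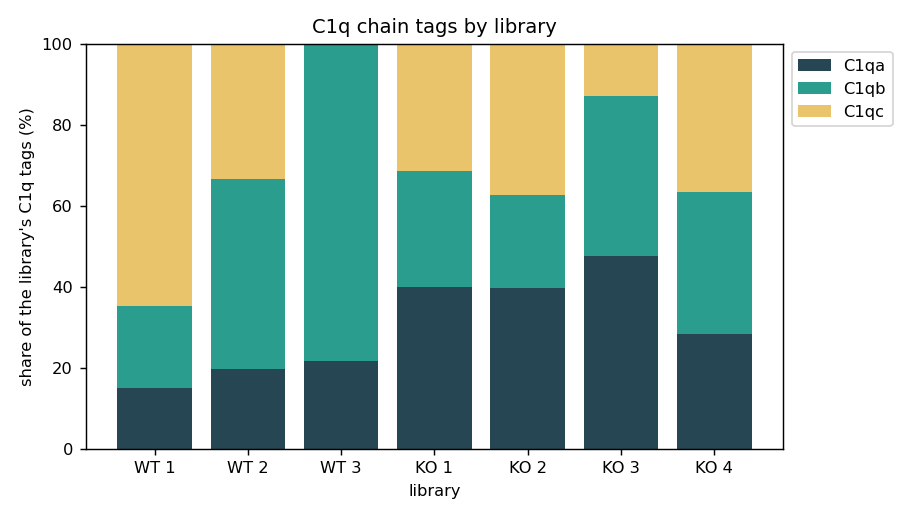
Share of each C1q chain among the C1q tags of a library, in percent, stacked to 100 for each of the 3 WT and 4 Fyn-KO libraries. C1qc runs from 64.7% in WT replicate 1 to 0.0348% in WT replicate 3, and from 12.9 to 37.2% in Fyn-KO.

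Other macrophage and microglia genes were uneven in the same WT libraries. The summed CPM of 18 such markers was 1170, 305 and 974 in WT and 449 to 484 in Fyn-KO, a sum to which Ctss gave the most in each WT library. Per gene the list leaned the other way, with a mean log2(CPM + 1) of 2.08, 1.319 and 2.31 in WT and 3.84 to 4.03 in Fyn-KO, without overlap. Of the 17 tested, 6 were higher and 1 was lower in Fyn-KO, against 19.0% and 3.51% of all tested genes. Each of these 6 had under 10 counts over the WT group. Ctss, a lysosomal protease and the most abundant of them, fell from 724, 141 and 536 CPM in WT to 105 to 136 CPM in Fyn-KO (log2 fold change -2.08 ± 0.61, adjusted p = 0.0416). Csf1r, the receptor that macrophages need to survive, stood at 171, 118 and 0.252 CPM in WT and 27.1 to 57.8 CPM in Fyn-KO. Itgam was at 52.9 CPM in WT replicate 3 and had no count in the other WT libraries, and Cx3cr1, a defining receptor of microglia, had 1 count over the WT group and 46.9 to 75.2 CPM in Fyn-KO. P2ry12, another microglial receptor, had no count in WT and was found in 1 Fyn-KO library (2.88 CPM). Itgam, Cx3cr1 and P2ry12 were named after their values were seen. The part of these cells in the C1q values was not tested.

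C1ra, which encodes the protease C1r that is carried by C1q, rose from near absence. The gene lies on chromosome 6 (124512405 to 124523443, plus strand, 11 exons). It had 1, 0 and 1 counts in WT, which is 0.0783, 0 and 0.0839 CPM. The Fyn-KO libraries held 48.9, 39.7, 36.9 and 37.8 CPM (40.8 ± 5.52, n = 4). The Fyn-KO libraries lay close together, with the highest 1.33 times the lowest. The ratio of pooled counts was 839, with a 95% counting interval of 232 to 6931. The edgeR adjusted p was 0.0121, and 0.00455 to 0.0290 when any 1 library was left out. Of the 50-base stretches in the last 500 bases of its transcript, 19.1% also occur in C1rb, a second C1r gene, so tags of the 2 genes may be mixed. C1rb itself rose from 2 counts in WT to 18.5 ± 9.72 CPM in Fyn-KO (ratio 385, 106 to 3182, adjusted p = 0.0261). C1s1, the partner protease, named after its values were seen, stood at 0, 0 and 0.923 CPM in WT and 9.09 to 59.8 CPM in Fyn-KO and did not pass (adjusted p = 0.0854).

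C2, the protease that C1s cuts to form the classical C3-cleaving enzyme, showed the same split. It lies on chromosome 17 (34862604 to 34898265, minus strand, 18 exons), 85 bases upstream of Cfb. It had 0, 0 and 2 counts in WT, where 3 counts in the shallowest library would be 0.252 CPM, and 81.4, 59.4, 48.4 and 75.2 CPM in Fyn-KO (66.1 ± 15.0025). The pooled ratio was 1354 (95% counting interval 374 to 11185). The adjusted p was 0.0122, and 0.00697 to 0.0330 when any 1 library was left out. The read-through gene Gm20547, which has no row in the table, covers the 3' end of C2 on the same strand.

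C3, the protein on which all routes converge, rose by less certain margins. It lies on chromosome 17 (57203970 to 57228136, minus strand, 41 exons). C3 gave 0.235, 0.0611 and 1.60 CPM in the WT libraries (0.630 ± 0.840), and the Fyn-KO libraries gave 51.5, 44.2, 44.99 and 27.3 CPM (42.0 ± 10.3). The groups lay far apart, and the Fyn-KO mean was 66.6 times the WT mean. The log2 fold change was 5.70 ± 1.68 (edgeR adjusted p = 0.0435). The call was lost without WT replicate 1 (adjusted p = 0.0596) and without Fyn-KO replicate 1, 2, 3 or 4 (0.120, 0.116, 0.0907 and 0.0964), at log2 fold changes of 5.28 to 5.85. Without WT replicate 3 it was 8.13 (adjusted p = 0.00787). Limma-voom with quality weights called none of C1ra (adjusted p = 0.309), C2 (0.305) and C3 (0.156), at log2 fold changes of 9.30, 10.14 and 7.88.

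The exact two-sided permutation test of CPM over the 35 ways to divide 7 libraries into 3 and 4 gave 0.0286, the smallest p it allows, for C1qa, C1ra, C2 and C3. It gave 0.914 for C1qb, 0.343 for C1qc, 0.229 for Serping1, 0.143 for C4b and 0.457 for Cfb. These 9 values are not adjusted.

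The windows around the start sites of C1ra and C3, which rose together, are printed here, from RefSeq for GRCm38.p6 (250 bases before the start to 50 after it, on the gene's strand). Capitals mark matches to TTCNNNGAA, the gamma-activated site known from interferon-responsive genes. The other motif searched was GAAANNGAA, the core of the interferon-stimulated response element, and both were searched on both strands, with matches to one allowed to overlap the other.
C1ra, chr6:124512371-124512670, plus strand: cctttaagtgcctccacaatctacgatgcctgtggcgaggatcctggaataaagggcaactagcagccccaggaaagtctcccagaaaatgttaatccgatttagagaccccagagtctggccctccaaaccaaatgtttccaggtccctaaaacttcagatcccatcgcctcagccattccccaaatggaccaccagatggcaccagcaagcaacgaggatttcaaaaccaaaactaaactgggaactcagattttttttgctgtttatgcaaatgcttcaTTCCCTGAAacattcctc
C3, chr17:57228087-57228386, minus strand: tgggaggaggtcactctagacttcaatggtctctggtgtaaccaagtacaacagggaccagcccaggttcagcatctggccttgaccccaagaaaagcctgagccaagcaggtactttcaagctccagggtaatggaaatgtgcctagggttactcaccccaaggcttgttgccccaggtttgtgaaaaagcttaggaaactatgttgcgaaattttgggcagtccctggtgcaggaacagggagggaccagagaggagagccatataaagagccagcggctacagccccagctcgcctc
C1ra has 1 match to the first motif, beginning 33 bases into the RefSeq transcript, and C3 has none to either. The GENCODE position of C1ra given above begins earlier, at 124512405, so most of the C1ra window lies inside that gene. C1qb and C1qc, the other members matched to a window, have none to either motif. Of 32851 windows of 300 bases, 8.30% held the first motif and 8.56% the second, so a match is a description of these letters and not a site.

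Summed fibroblast and steroid tissue markers were higher in Fyn-KO, as were C1ra, C2 and C3. Those of hepatocytes and endothelium did not follow this split. Summed fibroblast markers were 1.96, 182 and 1113 CPM in WT and 2480 to 3296 CPM in Fyn-KO, and 4 of 10 tested rose. The most abundant of them, the collagen genes Col1a2 and Col3a1, did not pass (adjusted p = 0.486 and 0.277). Col1a2 was at 0.548, 12.7 and 408 CPM in the WT libraries and at 567 to 949 CPM in those of Fyn-KO. Of the 8 steroid tissue markers 5 rose. Over all tested genes 19.0% were called higher, most of them with few WT counts, so neither count is read as particular to these lists. WT replicate 3, which had the most fibroblast and steroid tissue markers of its group (285 CPM of the latter), also had the most C3 of the WT libraries. Markers of hepatocytes, where C3 is known to be abundant, summed to 269 to 445 CPM in WT and 4.23 to 8.18 CPM in Fyn-KO, with 1 of 2 tested lower. That sum was mostly Alb in WT, at 423, 304 and 267 CPM, which had no count in Fyn-KO. Apoa1 went the other way without overlap, at 0 to 0.504 CPM in WT and 3.62 to 8.18 CPM in Fyn-KO, and did not pass (adjusted p = 0.0694, named after its values were seen). Summed endothelial markers were 1.33, 20.1 and 1444 CPM in WT and 561 to 600 CPM in Fyn-KO, with 0 of 8 tested called. For this list WT replicate 3 was above each Fyn-KO library. The part of these tissues in the members' values was not tested.

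**Figure D3:**
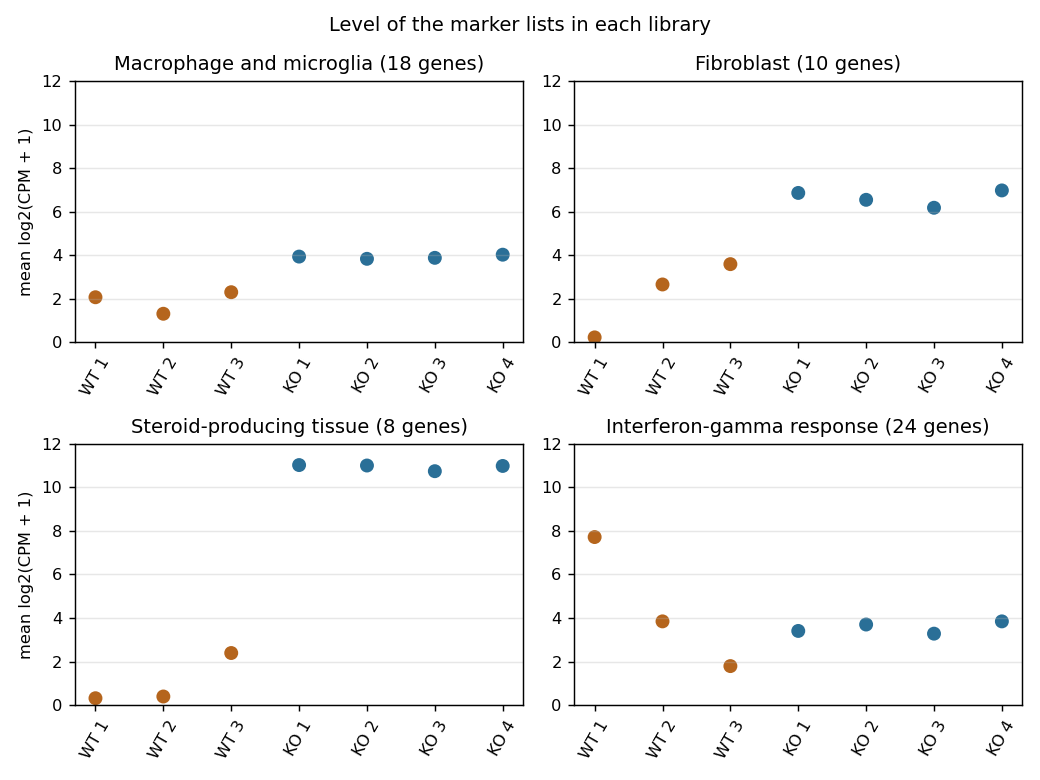
Mean log2(CPM + 1) over the genes of each list in each library, WT in brown and Fyn-KO in blue. The macrophage and microglia, fibroblast and steroid tissue lists are higher in each Fyn-KO library than in any WT library, and the interferon-gamma list is highest in WT replicate 1 (7.72) and lowest in WT replicate 3 (1.79).

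Serping1, which encodes the inhibitor of C1r and C1s, was abundant in Fyn-KO and in 1 of the 3 WT libraries. It lies on chromosome 2 (84765387 to 84775444, minus strand, 8 exons). Serping1 gave 184, 0.0611 and 2.69 CPM in the WT libraries (62.1 ± 105), and the Fyn-KO libraries gave 172, 182, 89.2 and 210 CPM (163 ± 51.9). WT replicate 1 lay inside the Fyn-KO range and the other WT libraries far below it. The log2 fold change was 1.35 ± 1.76 (adjusted p = 0.698). Without WT replicate 1, singled out after the values were seen, it was 6.49 with an adjusted p of 0.0307. Without any other 1 library the adjusted p was 0.672 to 0.833.

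C4b, the fourth component, leaned the other way. It lies on chromosome 17 (34728380 to 34743882, minus strand, 41 exons), 112491 bases from Cfb in the same region of immune genes. C4b gave 556, 408 and 0.336 CPM in the WT libraries (321 ± 288), and the Fyn-KO libraries gave 11.8, 15.6, 33.1 and 12.6 CPM (18.3 ± 9.99). WT replicates 1 and 2 were far above each Fyn-KO library, and WT replicate 3 with 4 counts was below each of them. Averaged over libraries, WT was 17.6 times higher, and the log2 fold change of -4.01 ± 1.54 did not pass (adjusted p = 0.101). It passed without WT replicate 3 (-4.60, adjusted p = 0.00778), a library singled out after the values were seen. Without any other 1 library it did not pass (adjusted p of 0.127 to 0.247). C4b took 54.3% and 83.0% of the tags of the 9 members in WT replicates 1 and 2, 0.136% in WT replicate 3 and 2.04 to 6.39% in Fyn-KO.

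Tags of C4b and its near copy C4a may be mixed, since 38.1% of the 50-base stretches in the last 500 bases of C4b occur in C4a. C4a, named after its values were seen, stood at 48.2, 82.8 and 0.0839 CPM in WT and 2.02 to 8.21 CPM in Fyn-KO (adjusted p = 0.244). For C4a the adjusted p was 0.0195 without WT replicate 3 and 0.237 or more without any other 1 library. Both genes were thus nearly absent from WT replicate 3 alone among the WT libraries. Oligodendrocyte-lineage markers, at 23762 CPM in that library, were within the range of the other WT libraries. Summed astrocyte markers, 8 in all, were 4122, 2171 and 2290 CPM in the WT libraries and 444 to 623 CPM in those of Fyn-KO. Of these markers 3 of 7 tested were lower, against 3.51% of all tested genes. S100b, the most abundant, had 1348 to 2589 CPM in WT and 14.8 to 94.0 CPM in Fyn-KO, while Gja1, a gap junction gene, had 0.0783, 12.2 and 214 CPM in WT and 275 to 531 CPM in Fyn-KO. Their part in the C4b values was not tested.

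Cfb, which encodes factor B, the protease of the alternative route, was high in a single library. It lies on chromosome 17 (34856374 to 34862518, minus strand, 18 exons). Cfb gave 143, 0.122 and 0.336 CPM in the WT libraries (47.8 ± 82.5), and the Fyn-KO libraries gave 2.88, 11.5, 1.75 and 11.1 CPM (6.83 ± 5.23). WT replicate 1 was above each Fyn-KO library and the other WT libraries below each of them. The log2 fold change was -2.86 ± 2.07 (adjusted p = 0.428), and 4.59 in the other direction without WT replicate 1 (adjusted p = 0.0800). In the GENCODE M21 transcripts searched here, 93.8% of the 50-base stretches in the last 500 bases of Cfb also belong to Gm20547. The annotation behind the counts is not given, so how tags of Cfb were assigned is not known.

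The WT library with the most Cfb, Serping1, C4b and C1qc was also the one with the highest interferon-gamma response. Interferon gamma is known to raise complement genes, and which of the 9 members it raises was not examined here. Other members did not follow that order. WT replicate 1 had 1 count of C1ra, 0 of C2 and 3 of C3. C1qa, C1qb and C3 were highest among the WT libraries in WT replicate 3, which had the lowest response. The mean log2(CPM + 1) of 24 response genes was 7.72, 3.85 and 1.79 in WT replicates 1 to 3 and 3.28 to 3.85 in Fyn-KO. Igtp, an interferon-induced GTPase and the most abundant of them, was at 2547, 219 and 0.168 CPM in the WT libraries and 9.38 to 29.2 CPM in those of Fyn-KO (adjusted p = 0.0717). Irf1, a transcription factor of the response, was at 1099, 9.04 and 298 CPM in WT and 45.2 to 106 CPM in Fyn-KO (adjusted p = 0.161), so the single genes did not keep 1 order over the WT libraries. Of the 21 response genes tested, 2 were lower in Fyn-KO (Gbp6 and Tap1), against 3.51% of all tested genes. The part of this response was not tested.

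The members split by their profile over the 7 libraries. Pearson's r of log2(CPM + 1), given as a description of libraries that share their group differences, was 0.998 for C1ra with C2, 0.986 for C1ra with C3 and 0.982 for C2 with C3. It was 0.42 between C4b and Cfb, 0.70 between Cfb and Serping1, and -0.04 between C4b and Serping1. Among the C1q chains it was 0.56 for C1qa with C1qb, 0.04 for C1qa with C1qc and -0.75 for C1qb with C1qc. Among 9715 genes with a mean of 10 CPM and a count in 4 libraries, those most like C1ra were Fbxo32 (r = 0.9999), Etnk2 and Ralgapa1, and those most like C2 were Fam13b (0.9999), Ggps1 and Lyrm5. C3 was most like 9430020K01Rik (0.996) and Rbpms, Serping1 like Mecr (0.997), Arf6 and Zmynd8, and Cfb like Mus81 (0.997), Fam221a and Trpt1. C4b was most like Asphd2 (0.993), Pdzrn4 and Fut10, C1qa like Nbea (0.988), Slc9a8 and Clybl, C1qb like 2010107E04Rik (0.981), St8sia4 and Arhgap44, and C1qc like 1110065P20Rik (0.996), Ptp4a1 and Ggh. No marker of the macrophage list was among them. With 3 genes taken per member out of 9715, that says nothing about the source of the C1q chains.

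The rest of the pathway rose where it passed the test at all. Of 51 further complement genes, 49 were in the table, 8 had no count and 26 were tested. Of these 10 rose (38.5%), 0 fell and 16 did not pass in edgeR, and 0 had an unadjusted p under 0.05 with a lower level, while DESeq2 called 16 higher and 1 lower (Csmd3) and limma-voom 0. CPM did not overlap for 13 that were higher and 2 that were lower in Fyn-KO. Over all tested genes the shares were 30.1% and 7.32% without overlap and 19.0% called higher. Of the 10 called, 9 had under 10 counts in each WT library, as did 2340 of the 2493 genes called higher in all. The median log2 fold change was 6.07, against 0.45 for all tested genes. It was 3.28 with the 7 genes without a WT count at the smallest change that 3 counts allow. That bound was not applied to all tested genes, so 3.28 and 0.45 are not alike. Genes that passed the filter only through Fyn-KO could hardly fail to differ. These calls and medians are therefore no support for a change of the pathway as a group.

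Of the 12 regulators tested, 5 (41.7%) were called higher. The share was 38.5% in the whole pathway list, which holds them, and 19.0% over all tested genes. Of the 5 regulators called, 4 had under 10 counts in each WT library, so their calls are not read as particular to regulators. Clu, a secreted chaperone that binds late complement complexes, rose from 9.47, 72.1 and 0.672 CPM in WT (27.4 ± 39.0) to 665, 640, 971 and 612 CPM in Fyn-KO (722 ± 167). Its log2 fold change was 4.96 ± 1.27 (adjusted p = 0.0241), and the call was lost without WT replicate 1 (adjusted p = 0.0661) or Fyn-KO replicate 3 (0.0607). Without WT replicate 2 the log2 fold change was 7.10. Cd59a, a membrane protein that blocks the lytic pore, had 3 counts in WT and 82.2 ± 12.8 CPM in Fyn-KO (pooled ratio 1132, 387 to 5492, adjusted p = 0.0124). Cd55, which dismantles the C3-cleaving enzymes, had 1 count in WT and stood at 9.59, 24.9, 0.657 and 15.7 CPM in Fyn-KO (pooled ratio 537, 96.0 to 21269, adjusted p = 0.0245). Without Fyn-KO replicate 1, 2 or 4 it failed the filter on low counts and was not tested. The groups did not overlap for any of these 3 genes, where 30.1% of all tested genes were higher in Fyn-KO without overlap.

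Of the classical and lectin genes 3 of 9 tested were called higher, of the alternative and late genes 1 of 1 and of the receptors 1 of 4. Over all tested genes the share was 19.0%, and the differences between these shares were not tested. Colec11, a lectin that starts the cascade on sugars, had no count in any WT library. Its Fyn-KO values were 41.4, 19.5, 12.04 and 28.3 CPM, which is at least 100-fold more by the floor of 3 counts per library (adjusted p = 0.0121). Cfp, which encodes properdin, the stabiliser of the alternative enzyme, also had no WT count and reached 17.0, 9.04, 7.44 and 27.0 CPM with Fyn-KO, at least 60-fold more by that floor (adjusted p = 0.0121). The floor covers counting error only, and single WT libraries missed many genes, so neither fold is a bound on the difference in expression. Colec12, a scavenger receptor of the collectin family, rose from 10 counts in WT to 6.56 ± 3.51 CPM (adjusted p = 0.0485). That call was lost without WT replicate 1 or 3 (0.0537 and 0.0982) and without Fyn-KO replicate 1, 2 or 3 (0.0590, 0.0550 and 0.0559). For C1rb, named above, the call was lost without Fyn-KO replicate 1, 2 or 4 (0.0602, 0.0571 and 0.0553). C5ar1, the receptor of the C5a fragment, had 2 counts in WT and 7.19 ± 3.01 CPM in Fyn-KO (pooled ratio 145, 39.8 to 1205, adjusted p = 0.0198). C3ar1, the receptor of the C3a fragment, named after its values were seen, stood at 26.5, 29.7 and 117 CPM in WT and 9.52 to 20.6 CPM in Fyn-KO and did not pass (adjusted p = 0.221), although its groups did not overlap.

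**Figure D4:**
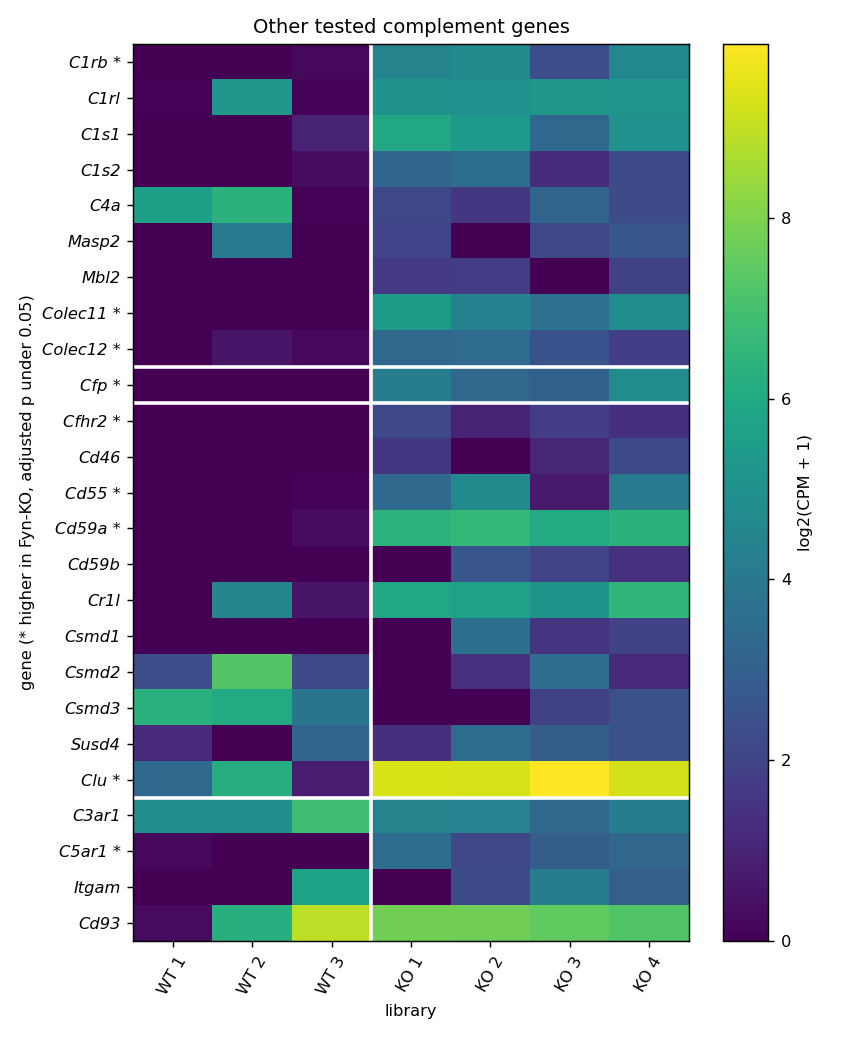
Level of 25 of the 26 other tested complement genes in each library as log2(CPM + 1), from dark (0) to yellow. White lines divide WT from Fyn-KO libraries and, from the top, the classical and lectin genes, Cfp, the regulators and the receptors. The 9 genes marked with a star were called higher in Fyn-KO, among which Clu reaches the brightest values.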

How the data were processed

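RNA of sorted tumour cells was read as 3' tags in 7 libraries (QuantSeq, per the labels' protocols). The authors deposited 1 table of counts, whole numbers per gene and library, which they call modified in a way not given in the sources used here. Per the submitters' processing notes, Bowtie2, bedtools and DESeq2 1.32.0 were used with mm10 (GRCm38). The annotation and the strand of counting are not given there. The column of WT replicate 3 was joined to its group only, since its name fits the labels of 2 samples. The labels name no shared animals or batches, so p-values measure the spread between these libraries.

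Low genes were removed by edgeR's filterByExpr (edgeR 4.0.16, R 4.3.3; 10 counts or more in as many libraries as the smaller group has, 15 summed), and counts were scaled by TMM factors and tested across all genes with the quasi-likelihood F test, two-sided. The SE is the size of the log2 fold change divided by sqrt(F). CPM use library totals, and a level of 0 was read against a floor of 3 counts per library. Counting intervals are exact 95% intervals and, like floors, cover counting error only. The test was checked on simulated counts. In these, the libraries of a group shared the same mean for each gene, and single libraries did not miss genes as in WT. That check therefore gives no error rate for the data described here. Genes named beside the 9 members are pathway genes past the threshold with a mean of 5 CPM, the 3 genes most alike to each member, and markers of other tissues. Members, lists and this rule were chosen with earlier results of these data known. Alternatives were other scalings and filters, DESeq2 1.42.0, limma 3.58.1 voom weights, a block for the replicate number, and each library left out. Some genes that the naming rule selects are counted but not reported here by name.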

Additional observations from a re-analysis of the deposited data

Results flagged for a closer look

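Clu stood at 971 CPM in Fyn-KO replicate 3, against 665, 640 and 612 CPM in the other Fyn-KO libraries. Its gap to the nearest library was larger, relative to the range of the group, than Dixon's 95% criterion allows, which chance exceeds in about 1 of 20 groups. Among the 9 members and the 10 pathway genes called higher, no other gene met it in the Fyn-KO libraries.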

How the results depend on the processing

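Of the members' log2 fold changes under the alternatives, 105 kept their direction and their side of the threshold, 13 no longer passed, 4 newly passed and 7 changed sign. Counts of calls moved most. Genes detected in both groups (10 or more counts in 2 WT and 3 Fyn-KO libraries) include 5 members, of which 0 were higher, and 6 pathway genes, of which 0 were higher, with 52 higher and 139 lower among all. This filter leaves out C1ra, C2, C3 and Cfb. DESeq2 called 1 member lower (C4b), 16 pathway genes higher and 1 lower, and 918 genes lower in all, and gave no adjusted p for Cfb and Serping1. Limma-voom called 0 members and 0 pathway genes higher, and 24 genes higher and 320 lower among all, so that lower calls prevailed there, against 2493 higher and 461 lower in the edgeR test. With a replicate block 0 members and 2 pathway genes were higher, with 188 higher and 135 lower among all. Same-numbered libraries did not deviate together (r = -0.01, -0.00 and -0.02). The block and these values use the column numbers, and the titles of the WT samples carry other numbers. Single WT libraries missed many genes, so these values cannot tell whether same-numbered libraries share more than a number. With 1 library left out, 2 to 4 members were higher and 0 to 1 lower, 7 to 12 pathway genes higher and 0 to 1 lower, and 2190 to 4585 genes higher and 247 to 839 lower in all. C1qb changed sign in the genes detected in both groups (0.0157), with limma-voom (0.42), with the block (0.17) and without WT replicate 3 (1.27, against -0.94 to 1.27 over all libraries left out). Cfb did so with limma-voom (2.38), with the block (1.83) and without WT replicate 1 (4.59, against -3.45 to 4.59). The cause was not tested. WT values near 0 limit every fold given for C1ra, C2 and C3.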

Other observations

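Some complement genes outside the test were present in single WT libraries. Vtn, which encodes vitronectin, an inhibitor of the lytic pore, gave 0, 0 and 156 CPM in the WT libraries and no more than 0.547 CPM in any Fyn-KO library. Itgb2, the beta chain of the C3 fragment receptors, gave 0, 0 and 33.7 CPM in the WT libraries, while Fyn-KO gave 0, 4.33, 0 and 0 CPM. Among tested genes without a call, Csmd3, a membrane protein with complement control repeats, gave 79.6, 66.0 and 13.5 CPM in the WT libraries and 0, 0, 2.85 and 4.57 CPM in those of Fyn-KO, without overlap (adjusted p = 0.152). Cd93 ranged from 0.235 to 486 CPM across the WT libraries and from 150 to 225 CPM across the Fyn-KO libraries.
These genes were named after their values were seen.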
